A study of Mus musculus with 11 samples.

Results

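The genes described here were 10 components of bone morphogenetic protein (BMP) signalling, among them those of the receptor ALK1 and its co-receptor endoglin. They were taken by gene name from the 29307 genes of the count table. They comprised the ligand genes Bmp2, Bmp4 and Bmp6, the receptor genes Acvrl1, Bmpr2 and Eng, the signal transducer Smad1, the inhibitory Smad6 and the response genes Id1 and Id3. All 10 were present and all 10 passed the filter on low counts. They were measured by RNA sequencing of hepatic sinusoidal endothelial cells from age- and sex-matched C57BL/6J mice that were germ-free (GF, 5 libraries) or conventionally raised (CONV-R, 6 libraries). The mice were male and 10 to 12 weeks old per the study's methods, the CONV-R mice were kept specific pathogen-free, and the labels name no transgene or drug. The comparison asks how the absence of a microbiota relates to the level of each transcript in these cells.

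BMP ligands bind pairs of type I and type II receptor kinases, which phosphorylate SMAD1, SMAD5 and SMAD8, and these enter the nucleus with SMAD4 to switch on target genes such as the Id genes. In endothelium the type I receptor ALK1, encoded by Acvrl1, works with the type II receptor BMPR2 and with endoglin, and inherited loss of ALK1 or endoglin causes hereditary haemorrhagic telangiectasia. Sinusoidal endothelial cells of the liver are a known source of BMP2 and BMP6, which act on hepatocytes to induce the iron hormone hepcidin.

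Total counts per library ran from 7922855 to 14669352 in CONV-R and from 7242717 to 16164588 in GF, so that a single count was worth 0.0650 to 0.136 CPM (counts per 1000000 of a library total scaled by the trimmed mean of M values, TMM). The sort used antibodies against CD31, CD146 and endoglin, so the protein of Eng took part in choosing the cells. The 14 markers of sinusoidal endothelium, Stab2 and Lyve1 among them, summed to 35131 to 41554 CPM in CONV-R and 33405 to 46517 CPM in GF, and none of the 14 passed the test by edgeR, DESeq2 or limma voom, while 6 had an unadjusted p under 0.05 in edgeR. Markers of Kupffer cells and macrophages summed to 86.0 to 222 CPM in CONV-R and 197 to 931 CPM in GF, the highest in GF replicate 6, and 7 of the 10 were higher in GF. Their part in the results below was not tested. Of the markers of large vessels 2 of 5 tested were higher in GF (Ly6a and Cd34) while Vwf, Ackr1 and Selp did not pass (Log2FC 0.76, -0.17 and -0.66). Of those of periportal endothelium 2 of 7 were higher in GF (Ntn4 and Ltbp4). The values of that list were positive for 5 and negative for 2, Sox17 and Msr1 (Log2FC -0.32 and -0.07). No marker passed the edgeR test among those of pericentral endothelium (6 tested, 2 with an unadjusted p under 0.05, 0 by DESeq2 and 0 by voom), hepatocytes (9 tested, 2, 0 and 0), stellate cells and fibroblasts (3 tested, 2, 1 and 1), lymphocytes (3 tested, 1, 1 and 1) or the immediate early response (5 tested, 1, 1 and 0). No listed marker was at 0 counts in all libraries. GF livers gave less RNA per the study, and the same 20 ng was amplified for every library, so RNA yield and housing cannot be told apart. In bulk RNA of sorted cells, fewer cells of a type and less RNA per cell cannot be told apart either.

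None of the 10 genes passed an adjusted p of 0.05 in the comparison of GF with CONV-R by the quasi-likelihood test of edgeR, where 7.48% of the 12905 tested genes did. At an unadjusted p under 0.05 there were 4 (Acvrl1, Bmp4, Bmpr2 and Id1), against a background of 23.0%. DESeq2 called 2, Acvrl1 and Id1, both higher in GF, against a background of 9.83%, and limma voom called none, against 7.50%. The CPM of the groups overlapped for all 10, whereas 5.59% of all tested genes had groups that did not overlap. The Log2FC, which is GF minus CONV-R throughout, was positive for 7 and negative for 3 with a median of 0.17, while 49.1% of all tested genes had a positive Log2FC and their median was -0.0061.

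**Figure D1:**
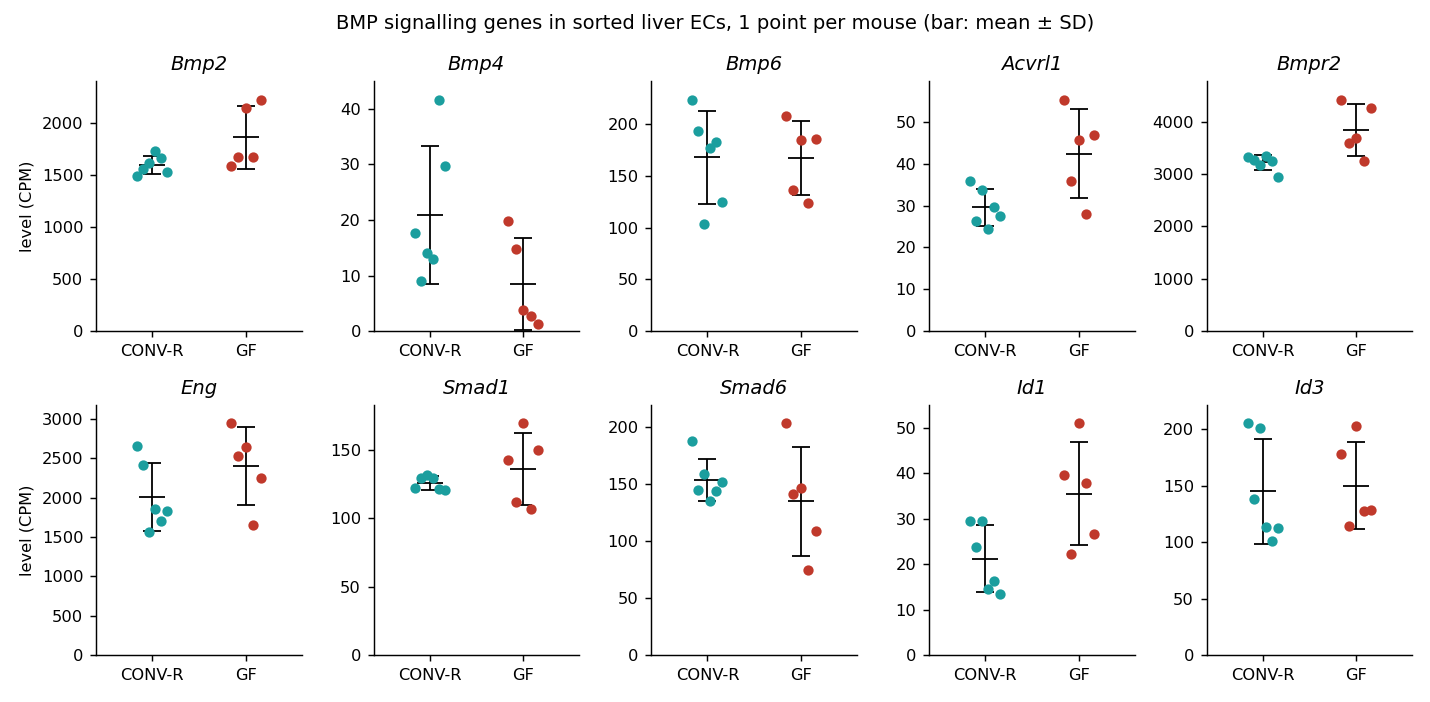
Level of each of the 10 genes in every library, in CPM on a linear axis from 0, with CONV-R in teal, GF in red, 1 point per mouse and bars for the mean ± SD. The groups overlap in every panel, Id1 reaches 51.0 CPM in GF against 29.6 CPM in CONV-R, and the Bmp4 points of GF spread from 1.22 to 19.8 CPM.

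Corrected for transcript length, Eng and Bmp2 were the most abundant of the set and Bmp4 and Acvrl1 the least. On the scale of CPM per kb of exon, Eng reached 495 ± 106 in CONV-R (SD, n = 6) and 593 ± 121 in GF (SD, n = 5), and Bmp2 reached 451 ± 25.0 and 525 ± 84.4. Eng alone made up 37.3% of the summed level of the 10 genes. Below these came Bmpr2 with 179 in CONV-R and 214 in GF, Id3 with 81.0 and 83.8, Smad6 with 48.0 and 42.2, Bmp6 with 43.0 and 42.9, Id1 with 18.3 and 30.6, Smad1 with 20.1 and 21.8, Acvrl1 with 6.92 and 9.93, and Bmp4 with 9.27 and 3.77, all as group means in CPM per kb. Neighbours in this order that differed by less than the larger SD were Eng and Bmp2, Smad6 and Bmp6, and Id1 and Smad1. Acvrl1 and Bmp4 were likewise within the spread in CONV-R but not in GF.

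**Figure D2:**
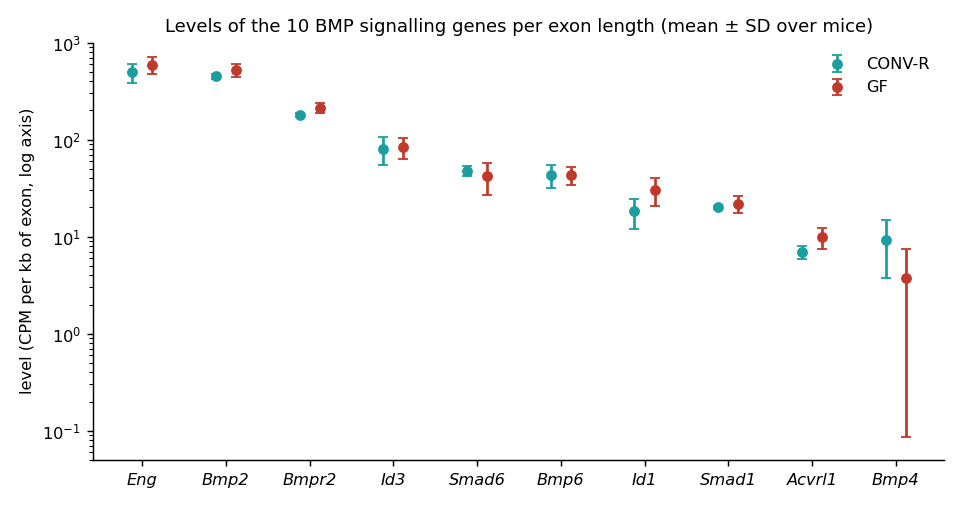
Group means of the 10 genes in CPM per kb of exon on a log axis, ordered by the mean over both groups, with CONV-R in teal, GF in red and the SD over mice as bars. Eng and Bmp2 stand at the top with 495 and 451 in CONV-R, and Acvrl1 and Bmp4 at the bottom with 6.92 and 9.27.

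Among the ligands, BMP2 and BMP6 are the pair made by sinusoidal endothelium. Bmp2 (chr2:133552159-133562885, plus strand, GRCm38) ranged from 1499 to 1733 CPM in CONV-R with a median of 1590, and measured 1589, 1677, 2150, 1682 and 2230 CPM in GF replicates 1, 2, 4, 5 and 6. GF replicates 4 and 6 lay above every CONV-R library and the other GF libraries lay among them. The Log2FC was 0.22 ± 0.11 (SE, adjusted p = 0.234, edgeR), and the 95% interval of the fold ran from 0.994 to 1.36. Bmp6 (chr13:38345107-38500302, plus strand) had nearly equal means, with 168 ± 44.8 CPM in CONV-R (SD, n = 6) and 167 ± 35.8 CPM in GF (SD, n = 5). Its values ran from 104 to 224 CPM in CONV-R and from 124 to 208 CPM in GF, its adjusted p was 0.996 (edgeR), and the interval of the fold, 0.764 to 1.31, bounds a change that these libraries could have missed. Within a library the level of Bmp2 per kb was 11.2 ± 3.52 times that of Bmp6 in CONV-R (SD, n = 6, range 7.35 to 17.1) and 12.6 ± 2.47 times in GF (SD, n = 5, range 8.39 to 14.9). Exons of Bmp6 overlap the opposite-strand gene Txndc5 over 224 bases, and reads there cannot be assigned without strand.

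Bmp4 (chr14:46383520-46390669, minus strand), a ligand better known from stromal and large-vessel cells, had the lowest level per kb of the set in GF but not in CONV-R, where that of Acvrl1 was lower. It measured 19.8, 14.8, 3.81, 2.78 and 1.22 CPM in GF replicates 1, 2, 4, 5 and 6, the last from 9 counts. In CONV-R it ran from 8.95 to 41.7 CPM with a median of 15.9. GF replicates 4, 5 and 6 lay below every CONV-R library, while GF replicates 1 and 2 lay among them. The Log2FC was -1.26 ± 0.54 (SE, adjusted p = 0.171, edgeR), with a 95% interval of the fold from 0.190 to 0.920. It ran from -0.95 without CONV-R replicate 5 to -1.85 without GF replicate 1 (adjusted p = 0.350 and 0.0594, edgeR). Over the same libraries Lrat, the defining marker of stellate cells, measured 4.92 ± 2.32 CPM in CONV-R (SD, n = 6) and 1.89 ± 1.47 CPM in GF (SD, n = 5, adjusted p = 0.0865 by edgeR, 0.0331 by DESeq2 and 0.0448 by voom), a call in the latter tools but not in edgeR. The other tested markers of that list, Hgf and Dcn, had positive values (Log2FC 0.46 and 0.45), the median of the 3 was 0.45, and the summed level of the list ran from 99.3 to 261 CPM in CONV-R and from 204 to 271 CPM in GF. Most of that sum was Hgf, with means of 171 CPM in CONV-R and 235 CPM in GF, so the sum says little about the other markers. The part of such cells in the Bmp4 values was not tested.

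The receptor genes all had higher means in GF, without passing the edgeR threshold. Acvrl1 (chr15:101128522-101145336, plus strand), which encodes ALK1, measured 55.3, 35.9, 45.6, 27.9 and 46.9 CPM in GF replicates 1, 2, 4, 5 and 6, and in CONV-R ran from 24.3 to 35.8 CPM with a median of 28.6. All GF libraries except replicate 5 exceeded the highest CONV-R library. The Log2FC was 0.52 ± 0.17 (SE, adjusted p = 0.0683, edgeR), with a 95% interval of the fold from 1.12 to 1.84, and the adjusted p was 0.0403 by DESeq2. Without GF replicate 5 the edgeR fit called Acvrl1 (Log2FC 0.64, adjusted p = 0.0169), the only call in 11 fits with a library left out, which went down to 0.41 without GF replicate 1 (adjusted p = 0.190).

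Bmpr2 (chr1:59763400-59879014, plus strand), the type II receptor, measured 4421, 3597, 3681, 3246 and 4261 CPM in GF replicates 1, 2, 4, 5 and 6, against 2952 to 3343 CPM in CONV-R with a median of 3266. Again replicate 5 was the one GF library within the CONV-R range. The Log2FC was 0.25 ± 0.099 (SE, adjusted p = 0.135, edgeR), and without GF replicate 5 edgeR called it too (Log2FC 0.31, adjusted p = 0.0449), again in 1 of 11 such fits, with 0.20 at the lowest without GF replicate 1 (adjusted p = 0.286). Eng (chr2:32646595-32682669, plus strand), which encodes endoglin, measured 2945, 2529, 2645, 1648 and 2245 CPM in GF against 1563 to 2654 CPM in CONV-R with a median of 1843. The groups overlapped over most of their range, and the Log2FC was 0.26 ± 0.16 (SE, adjusted p = 0.336, edgeR).

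The transducer and its inhibitor differed by less than their spread. Smad1 (chr8:79338395-79399518, minus strand) measured 126 ± 4.95 CPM in CONV-R (SD, n = 6) and 136 ± 26.4 CPM in GF (SD, n = 5), with CONV-R libraries between 121 and 132 CPM and GF libraries between 107 and 170 CPM. The GF range enclosed the whole CONV-R range. Its Log2FC was 0.11 ± 0.12 (SE, adjusted p = 0.626, edgeR). Smad6 (chr9:63953076-64022059, minus strand), an inhibitory SMAD that BMP signalling induces, measured 204, 141, 147, 74.8 and 109 CPM in GF replicates 1, 2, 4, 5 and 6, against 135 to 188 CPM in CONV-R with a median of 148. The GF values reached both above and below the CONV-R range, and the Log2FC was -0.19 ± 0.19 (SE, adjusted p = 0.600, edgeR).

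The response genes Id1 and Id3 encode inhibitors of basic helix-loop-helix transcription factors and are early targets of SMAD1 and SMAD5. Id1 (chr2:152736251-152737410, plus strand) measured 39.7, 22.3, 51.0, 37.8 and 26.7 CPM in GF replicates 1, 2, 4, 5 and 6, and in CONV-R ran from 13.5 to 29.6 CPM with a median of 20.1. GF replicates 1, 4 and 5 lay above every CONV-R library, and GF replicates 2 and 6 lay within their range. The Log2FC of 0.75 ± 0.24 was the largest positive value of the 10 (SE, adjusted p = 0.0715, edgeR), with a 95% interval of the fold from 1.18 to 2.40. The adjusted p was 0.0359 by DESeq2 and 0.0551 by limma voom, and edgeR called Id1 when GF replicate 2 (Log2FC 0.88, adjusted p = 0.0424), CONV-R replicate 1 (Log2FC 0.87, adjusted p = 0.0430) or CONV-R replicate 3 (Log2FC 0.86, adjusted p = 0.0411) was left out. In the other 8 of these 11 fits Id1 did not pass, and the lowest Log2FC was 0.58 without GF replicate 4 (adjusted p = 0.186, edgeR).

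Id3 (chr4:136143497-136145755, plus strand) did not show such a difference, with 178, 114, 203, 128 and 128 CPM in GF replicates 1, 2, 4, 5 and 6 and 101 to 205 CPM in CONV-R with a median of 126. The ranges nearly coincided, the Log2FC was 0.05 ± 0.20 (SE, adjusted p = 0.918, edgeR), and the interval of the fold ran from 0.772 to 1.39. Scaled by library totals alone the Log2FC of Id3 was -0.017. Whether the Log2FC of Id1 and Id3 differed from each other was not tested.

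**Figure D3:**
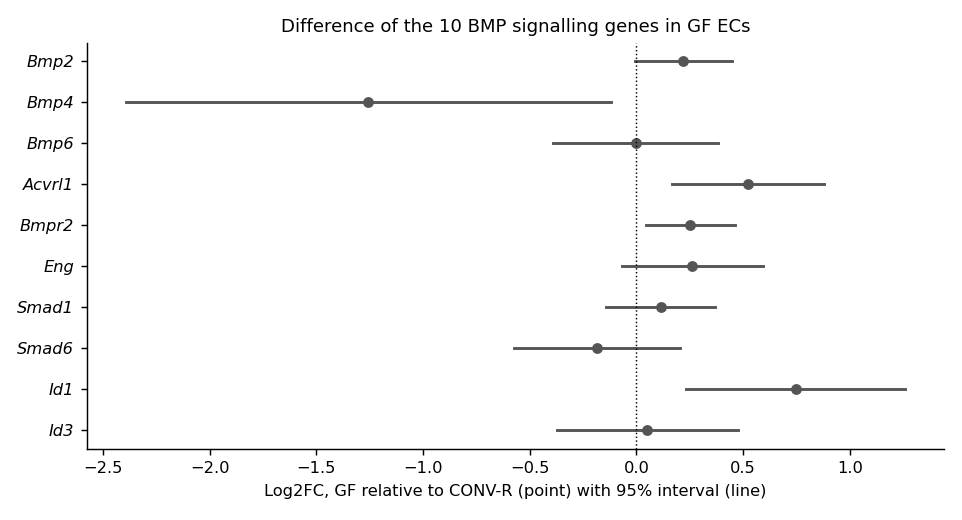
Log2FC of GF minus CONV-R for the 10 genes with 95% intervals from the edgeR fit and a line at 0. The intervals of Acvrl1, Bmpr2 and Id1 lie above 0 and that of Bmp4 lies below it, but none of these genes passed the adjusted threshold over all genes.

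Within groups, Id1 and Id3 varied together from mouse to mouse. With the group means removed, their log2 CPM had a Pearson r of 0.904 over the 11 libraries (permutation of libraries within groups, two-sided p = 0.00135, adjusted over 4 pairs 0.0054) and a Spearman rho of 0.855 (permutation p = 0.00291, adjusted 0.0116). Without GF replicate 2 and CONV-R replicate 6, the libraries farthest from the median of Id1, r was 0.901. Of the other 12904 tested genes, 11 had a higher r with Id1 than Id3 had, and 31 had a higher r with Id3 than Id1 had. The other pairs were not distinguishable from no relation. Acvrl1 and Eng had an r of 0.543 (permutation p = 0.11, adjusted 0.147, rho 0.473 with permutation p = 0.166), which became 0.0512 without GF replicates 1 and 5. Id3 and Smad6 had an r of 0.518 (permutation p = 0.0763, adjusted 0.147, rho 0.5 with permutation p = 0.1), and Id1 and Smad6 an r of 0.256 (permutation p = 0.498, adjusted 0.498, rho 0.418 with permutation p = 0.255). All points of a pair share their libraries, and with them depth and RNA quality.

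**Figure D4:**
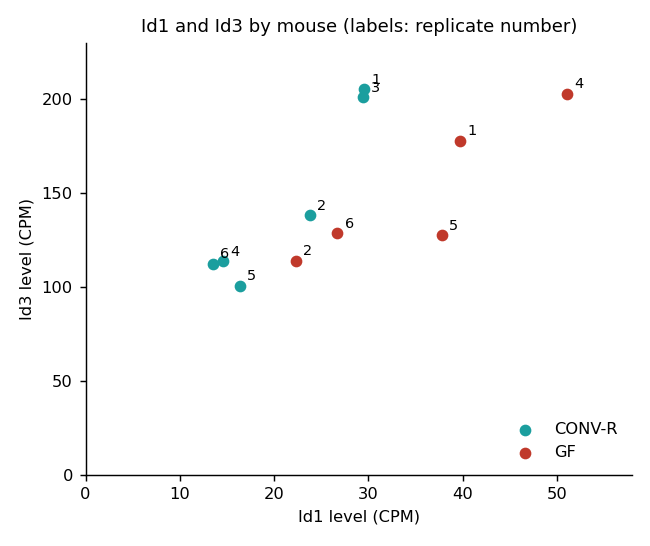
Id1 against Id3 in the 11 libraries, in CPM on linear axes from 0, with CONV-R in teal, GF in red and the replicate number beside each point. Id1 increases with Id3 over the points of both colours (r = 0.904 with group means removed), and GF replicate 4 held 51.0 CPM of Id1 at 203 CPM of Id3 where CONV-R replicate 1 held 29.6 CPM at 205 CPM.

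Id2, of the same family and also a BMP target but one that many other signals control, was the 1 Id gene that passed the edgeR test. It measured 77.7, 50.6, 75.9, 60.4 and 63.2 CPM in GF replicates 1, 2, 4, 5 and 6 and 100 to 169 CPM in CONV-R with a median of 118, so the groups did not overlap. It fell in GF, with a Log2FC of -0.94 ± 0.15 (SE, adjusted p = 0.00088, edgeR). Per kb of exon Id2 went from 51.7 CPM in CONV-R to 26.9 in GF, while Id1 measured 18.3 and 30.6, Id3 81.0 and 83.8, and Id4 28.4 and 23.1 (adjusted p of Id4 = 0.307, edgeR). The ratio of Id2 to Id1 counts within a library, which no scaling can change, was 6.41 ± 1.90 in CONV-R (SD, n = 6, range 4.00 to 8.68) and 1.94 ± 0.391 in GF (SD, n = 5, range 1.49 to 2.37). These ranges did not overlap. The ratio was chosen after the values of both genes were seen and is given as a description, with no test.

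The rest of the pathway was read from 6 lists by role, which held 66 genes of the count table, 39 of them tested. Of these 39, 5 were higher and 2 lower in GF by edgeR, against 4.80% and 2.67% of all tested genes, and their median Log2FC was 0.23 against -0.0061 for all tested genes. The 5 include Mgp, which passed the filter on low counts only through GF. With at least 10 counts in every library, where Mgp was not tested, 4 of 33 pathway genes were higher and 2 lower. In that fit 515 of all 10732 genes were higher and 334 lower. The lists were chosen with earlier results of these data known, so these shares are a description and no support. DESeq2 called 8 higher and 2 lower of the 44 pathway genes to which it gave an adjusted p, against 9.83% of all genes. Its calls include Tmem100 (adjusted p = 0.0406, DESeq2), which edgeR did not test and which had 69 counts in GF and 16 in CONV-R. Limma voom called 9 of the 39, against 7.50% of all genes, Bmpr1a among them (adjusted p = 0.0439, voom). The background split depended on scaling, with 620 higher and 345 lower genes under TMM and 513 and 470 with library totals alone, where the pathway genes still gave 5 and 2. None of the other BMP ligand genes was expressed enough to test, with 2 to 90 counts each over all libraries. The most abundant were Bmp8b with 90 counts and, by mean CPM over the 11 libraries, Bmp5 with 25, of which 18 came from 1 CONV-R library, and the genes of the ALK1 ligands BMP9 and BMP10, Gdf2 and Bmp10, named for their role, had 18 and 6. None of the 6 tested receptors and co-receptors passed by edgeR (3 with an unadjusted p under 0.05, 0 by DESeq2 and 1 by voom), and their median Log2FC was 0.29. The most abundant were the type I receptor Acvr1, with 122 CPM in GF and 99.4 CPM in CONV-R (adjusted p = 0.133, edgeR), and the type II receptor Acvr2a, with 80.0 and 65.5 CPM (adjusted p = 0.356, edgeR). None of the 4 other SMADs passed by any of these tools, nor at an unadjusted p under 0.05, with 115 and 98.5 CPM for the common partner Smad4 and 105 and 91.1 CPM for Smad5.

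Of the 7 tested modulators outside the cell, 2 rose and none fell, and 1 of the 2 (Mgp) passed the filter on low counts only through GF, where it is high. Bmper, which encodes a secreted BMP-binding protein, measured 49.5, 29.8, 36.8, 36.2 and 28.3 CPM in GF replicates 1, 2, 4, 5 and 6 against 10.9 to 23.6 CPM in CONV-R with a median of 14.5. Every GF library exceeded every CONV-R library, with a Log2FC of 1.17 ± 0.21 (SE, adjusted p = 0.00256, edgeR). Mgp, matrix Gla protein, which binds BMPs and restrains calcification, was scarce, with 14 to 29 counts per GF library and 1 to 16 per CONV-R library, so that it was tested only because of its GF counts. Its Log2FC was 2.19 ± 0.59 (SE, adjusted p = 0.0321, edgeR), but the adjusted p was 0.0527 to 0.0687 when CONV-R replicate 2 or 4, or any GF library but replicate 5, was left out. Without CONV-R replicate 5, which held 16 of the 30 counts of that group, the Log2FC was 2.98 (adjusted p = 0.00472, edgeR). Among the 11 tested regulators inside the cell the 1 call was Zeb2, a SMAD-binding repressor, which fell from 521 ± 48.8 CPM in CONV-R (SD, n = 6) to 383 ± 54.2 CPM in GF (SD, n = 5). Its groups overlapped through GF replicate 1, with 478 CPM, and its Log2FC was -0.44 ± 0.11 (SE, adjusted p = 0.0199, edgeR). The adjusted p of Zeb2 was 0.0525 without GF replicate 2 and 0.0608 without GF replicate 6.

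The list of other BMP and ALK1 response genes of endothelium had 3 higher and 1 lower of 11 tested, with a median Log2FC of 0.59, and the lower one was Id2. The list mixes induced genes with Angpt2, which ALK1 signalling is known to restrain, so this tally and median carry no single direction of the pathway. Gja4, which encodes connexin 37 of arterial gap junctions, measured 183, 164, 178, 170 and 202 CPM in GF replicates 1, 2, 4, 5 and 6 and 67.1 to 131 CPM in CONV-R with a median of 87.2. The groups did not overlap, and the Log2FC was 0.94 ± 0.16 (SE, adjusted p = 0.00141, edgeR). Hey1, a repressor shared by the Notch and ALK1 pathways, measured 14.4 ± 3.35 CPM in GF (SD, n = 5) and 6.55 ± 2.44 CPM in CONV-R (SD, n = 6). Its groups lay next to each other without overlap, 10.6 to 17.8 CPM against 3.62 to 10.3 CPM, and its Log2FC was 1.14 ± 0.26 (SE, adjusted p = 0.0127, edgeR). Angpt2, a ligand of the TIE2 receptor and a gene that ALK1 signalling is known to restrain, measured 51.7 ± 8.89 CPM in GF (SD, n = 5) and 34.3 ± 2.95 CPM in CONV-R (SD, n = 6). It rose with a Log2FC of 0.59 ± 0.13 (SE, adjusted p = 0.00958, edgeR). These genes also serve other pathways and several are found in arterial or large vessels, whose tested markers had positive values in 3 of 5 and negative values in 2 of 5, with a summed level of 341 to 635 CPM in CONV-R and 588 to 1266 CPM in GF. The part of such vessels in these values was not tested.

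For context on where SMADs could bind, the 250 bases upstream of the RefSeq start (GRCm38.p6) were searched for GTCT on both strands, the core letters bound by SMAD proteins, and for the GC-rich BMP element GGCGCC. Promoters of 7 of the 10 genes were matched. Bmp2, Id1 and Acvrl1 had no entry and were not searched, nor were bases farther upstream of any gene. GTCT occurred in 5 of these (Bmp4, Bmp6, Eng, Id3 and Smad6), against 82.86% of 32851 promoters, and GGCGCC in 1 (Bmpr2), against 9.59%. GGCGCC followed by GTCT after 5 bases occurred in 0 of the 7 and in 0.07% of all promoters. The 3 windows printed here are those of a ligand, a receptor and an inhibitor that contain no transcribed base of their gene, with GTCT or its reverse complement AGAC in capitals, read along the strand of the gene. They are chr14:46390670-46390919 on the minus strand for Bmp4, chr2:32646345-32646594 on the plus strand for Eng and chr9:64022060-64022309 on the minus strand for Smad6.
Bmp4: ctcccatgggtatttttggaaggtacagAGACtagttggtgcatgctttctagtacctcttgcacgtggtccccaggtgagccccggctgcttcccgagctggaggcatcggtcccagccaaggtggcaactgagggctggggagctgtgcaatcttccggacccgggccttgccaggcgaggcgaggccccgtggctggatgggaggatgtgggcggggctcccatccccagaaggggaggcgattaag
Eng: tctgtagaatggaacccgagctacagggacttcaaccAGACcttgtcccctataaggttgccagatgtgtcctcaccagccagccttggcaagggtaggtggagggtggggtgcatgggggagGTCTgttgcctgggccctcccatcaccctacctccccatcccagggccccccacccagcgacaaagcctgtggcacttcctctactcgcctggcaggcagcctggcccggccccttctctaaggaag
Smad6: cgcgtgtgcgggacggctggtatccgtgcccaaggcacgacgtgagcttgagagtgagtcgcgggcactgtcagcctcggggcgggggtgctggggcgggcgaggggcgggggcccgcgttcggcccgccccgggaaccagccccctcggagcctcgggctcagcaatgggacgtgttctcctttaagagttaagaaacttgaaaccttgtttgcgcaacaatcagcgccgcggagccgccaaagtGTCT
Eng held 2 matches and the others 1 each. The matches are a description of letters, and no binding was measured.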

How the data were processed

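Hepatic endothelial cells were sorted from each mouse, and the RNA was amplified and sequenced as single-end reads of 50 bp. Per the study's methods the authors trimmed reads with Trim Galore 0.4.4, aligned them to GRCm38 with STAR 2.5.2b and counted them per gene with featureCounts 1.5.2. They removed 1 GF library, which is not analysed here. The annotation release and the strand setting are not given in the sources used here. The deposited files hold raw counts per gene and log2 values that the authors normalized with DESeq. These log2 values look like a regularized log transform, which draws the differences of scarce genes towards 0, but the transform is not stated. Groups were taken from the labels, and p-values measure the spread between mice.

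Counts were filtered with filterByExpr, scaled with TMM and tested with the quasi-likelihood test of edgeR 4.0.16 in R 4.3.3, GF against CONV-R without covariates, on 12905 genes with Benjamini-Hochberg adjustment and a threshold of 0.05. Alternatives were DESeq2 1.42.0, limma 3.58.1 (voom, and on the deposited log2 values), other scalings and filters, robust dispersion, a replicate block and each library left out. Exon lengths came from GENCODE M21, matched by identifier for 29146 of 29307 genes, and promoters from RefSeq. Correlations used log2 CPM with a prior count of 2 and 100000 permutations. The fit was also run on simulated counts as a check of the method, and the outcome is not given here.

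The members and the gene lists were chosen with earlier results of these data known. Every member is named, with every pathway gene under an adjusted p of 0.05 in edgeR and, for lists with none, the 2 of highest mean CPM. Of the members, Bmp4, Bmp6, Acvrl1 and Eng share exon bases with an opposite-strand gene, as does Zeb2, and those reads could not be assigned without strand. Nog was not analysed here.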

Additional observations from a re-analysis of the deposited data

Results flagged for a closer look

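Of 34 groups of values examined (the 10 members and the 7 pathway genes that passed the edgeR test, each in CONV-R and in GF), 1 held a library set apart from the rest. Zeb2 in GF replicate 1 measured 478 CPM while the other GF libraries lay between 349 and 378 CPM, a gap of 0.774 of the range of the group. The rule was Dixon's ratio of gap to range, which by chance sets apart about 1 in 20 such groups if the values are normal. That condition was not tested.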

How the results depend on the processing

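The call for Bmper, Id2, Hey1, Gja4 and Angpt2 was kept in all 20 alternative fits. The count of the 10 genes that passed, 0 by the edgeR fit reported, was 2 by DESeq2 (Acvrl1 and Id1), 2 with no filter on low counts (Bmp4 at -1.28 with adjusted p = 0.0213, and Id1 at 0.74 with adjusted p = 0.0202), and 0 to 2 with a library left out. Over all tested genes the count of 965 became 1527 by DESeq2, 1134 of 25329 with no filter on low counts and 453 with limma on the deposited log2 values. It was 622 to 1260 with a library left out, the lowest without GF replicate 6 and 625 without CONV-R replicate 4. The count of pathway genes, 7, ran from 5 to 10. The Log2FC of Bmp6, -0.0024, was 0.016 with voom, 0.032 on the deposited values and -0.11 to 0.10 with a library left out, and that of Id3, 0.05, was -0.017 with library totals alone and -0.083 to 0.18 with a library left out. Zeb2 missed the threshold on the deposited values (-0.36, adjusted p = 0.0574), and Mgp was not tested with at least 10 counts in every library. With a library left out, r was 0.881 to 0.946 for Id1 and Id3, 0.159 to 0.531 for Id1 and Smad6, 0.451 to 0.603 for Id3 and Smad6 (unadjusted permutation p = 0.0231 without GF replicate 2) and 0.196 to 0.719 for Acvrl1 and Eng (unadjusted permutation p = 0.0321 without CONV-R replicate 3). With the longest transcript as length, 2 genes (Id1 and Smad1) changed places in the order of levels. In 100 bases upstream, GTCT occurred in 3 and GGCGCC in 0 of the 7 promoters. The cause of these changes was not tested. Scaling by library totals moved the median of all genes to -0.068.

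The replicate numbers do not name a shared animal, and same-numbered CONV-R and GF libraries had correlations of -0.0144 to 0.201, not all above 0.1, so the numbers were not taken as pairs. With the replicate block, and without CONV-R replicate 3, which has no GF partner, 2 of the 10 genes passed, Acvrl1 (0.54, adjusted p = 0.0412) and Id1 (0.86, adjusted p = 0.0281), and 9 of the 39 pathway genes. In that fit 1101 of all 12807 tested genes passed. The correlation was highest with the own number for 1 of 5 libraries. Depth limits the scarce genes, with 9 to 304 counts of Bmp4 per GF library and 1 to 16 counts of Mgp per CONV-R library.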

Other observations

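Since no member passed the edgeR test, the tested genes whose group-centred log2 CPM was most like a member over the 11 libraries are given for 3 members chosen after the values were seen, as a description. For Id1 they were Coa3 (r = 0.949) and Naa38 (r = 0.939), for Bmp4 they were Col6a3 (r = 0.923) and Cyp1b1 (r = 0.909), and for Acvrl1 they were Ltbp4 (r = 0.967), one of the periportal markers, and Ubl7 (r = 0.938). Near the threshold in edgeR were the arterial connexin gene Gja5, with a Log2FC of 0.92 (adjusted p = 0.0541, and 0.0187 by DESeq2 and 0.0563 by voom), and the ALK1 target gene Atoh8, with 1.23 (adjusted p = 0.0578, and 0.0172 by DESeq2 and 0.0468 by voom).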
